A study of Mus musculus with 12 samples.

Results

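Genes of the MYC network and of ribosome assembly were followed in lung ILC2s, 38 genes of the 24346 with an FPKM value in each of 12 RNA-seq libraries. They were taken by name from a list of MYC network, nucleolar and ribosome biogenesis genes, and all 38 were found, *Utp4* under its older symbol *Cirh1a*. All 38 had a mean of at least 0.5 FPKM and were among the 11395 genes tested. ILC2s are lymphocytes without antigen receptors that release IL-5 and IL-13, and they were sorted as CD45+ Lin- Thy1.2+ ST2+ cells from lungs of mice aged 7 to 12 weeks, C57BL/6 in the labels and C57BL/6J in the study's methods. The design crossed genotype with treatment: WT mice or *Sema6d*-/- mice (6DKO in the sample names), in which the gene of the transmembrane semaphorin Sema6D is deleted, were given intranasal PBS or IL-33 for 3 days, with 3 libraries in each of the 4 groups. The labels give an IL-33 dose of 50 ng and the study's methods a higher one, and the kits also differ, SMART-Seq HT with Nextera per the labels and a stranded mRNA kit per the methods.

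Ribosome assembly begins in the nucleolus, where RNA polymerase I transcribes the ribosomal RNA precursor, small nucleolar ribonucleoproteins (snoRNPs) modify it, and assembly factors fold and cut it into the small and the large subunit. MYC, which binds E-box DNA as a dimer with MAX, raises transcription of many of these genes in growing cells, and MXD proteins compete with it for MAX. IL-33 is an alarmin cytokine that activates ILC2s through its receptor ST2 and drives them to divide.

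The libraries held the markers of the sorted cells. All 14 ILC2 markers were above 0 in each of the 12 libraries, and their FPKM summed to between 6670 and 10100. The most abundant was *Id2*, a transcriptional regulator that innate lymphoid cells need, except in *Sema6d*-/- PBS replicate 3. There *Areg* was 2070 and *Id2* 2030 FPKM. The lists for other cell types were lower, and that for NK cells and ILC1s was high in *Sema6d*-/- PBS replicate 2 alone. There the 7 NK cell and ILC1 markers summed to 773 FPKM, of which 653 was the granzyme gene *Gzma*, and 0 of the 7 were listed at 0, against a sum of at most 43.2 in the other 11 libraries. T cell markers summed to 260 to 523 FPKM, of which *Cd3g* was 190 to 480 and *Lck* 37.9 to 205. In contrast, *Cd3e* was at most 9.81, *Cd3d* at most 3.94 and *Cd4* 0 in all 12 libraries. The study's methods name CD3ε, CD4 and CD8α among the Lin markers of the sort. Macrophage and monocyte markers summed to 521 FPKM in *Sema6d*-/- IL-33 replicate 2, 515 in *Sema6d*-/- PBS replicate 2 and 86.1 to 379 in the others. Genes of the macrophage and monocyte list differed in direction: *Ccr2* was 305 to 378 FPKM in the PBS and 85.3 to 148 in the IL-33 libraries, whereas *Chil3*, named after its values were seen, was 394 in *Sema6d*-/- IL-33 replicate 2, 83.1 in *Sema6d*-/- IL-33 replicate 3 and at most 51.1 in the others. The part of such cells in the results was not tested. The deleted gene, *Sema6d*, had 27.5, 46.1 and 37.5 FPKM in the WT PBS libraries, 29.0, 22.9 and 19.8 in those of *Sema6d*-/- mice given PBS, 19.7, 35.5 and 28.7 in the WT IL-33 libraries and 15.4, 13.6 and 13.8 in those of *Sema6d*-/- mice given IL-33. The *Sema6d*-/- libraries were lower than every WT library under IL-33, without overlap (exact permutation test, two-sided, p = 0.10, the smallest that 3 libraries against 3 can give), and the genotypes overlapped under PBS. The transcript was thus still measured in the *Sema6d*-/- libraries.

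Depth was not equal. FPKM values carry no read totals, and relative depth was estimated from weakly expressed genes, whose values step by the worth of a single read. Taking WT IL-33 replicate 3 as 1, the PBS libraries came to 0.739 to 0.998 and the IL-33 libraries to 0.968 to 1.39. More genes were listed at 0 in the PBS libraries, including 8 of the 38 members in at least 1 of the 6 (21.1%, against 40.6% of the genes tested), and 0 of the 38 in the IL-33 libraries (against 11.8%). In *Sema6d*-/- PBS replicate 1, 6 members were listed at 0 (*Dkc1*, *Utp4*, *Wdr75*, *Nop14*, *Heatr1* and *Nop2*). Pooled over the genotypes, the spread within groups was larger under PBS than under IL-33 for all 38 members and 89.8% of the genes tested. Within a single genotype this did not always hold. On the log2 scale the standard deviation of *Mxd1* in WT was 0.39 under PBS and 0.45 under IL-33. That of *Nhp2* in *Sema6d*-/- was 0.19 and 0.35. The part of depth in these differences was not tested, and a value of 0 is given here only as listed.

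**Figure D1:**
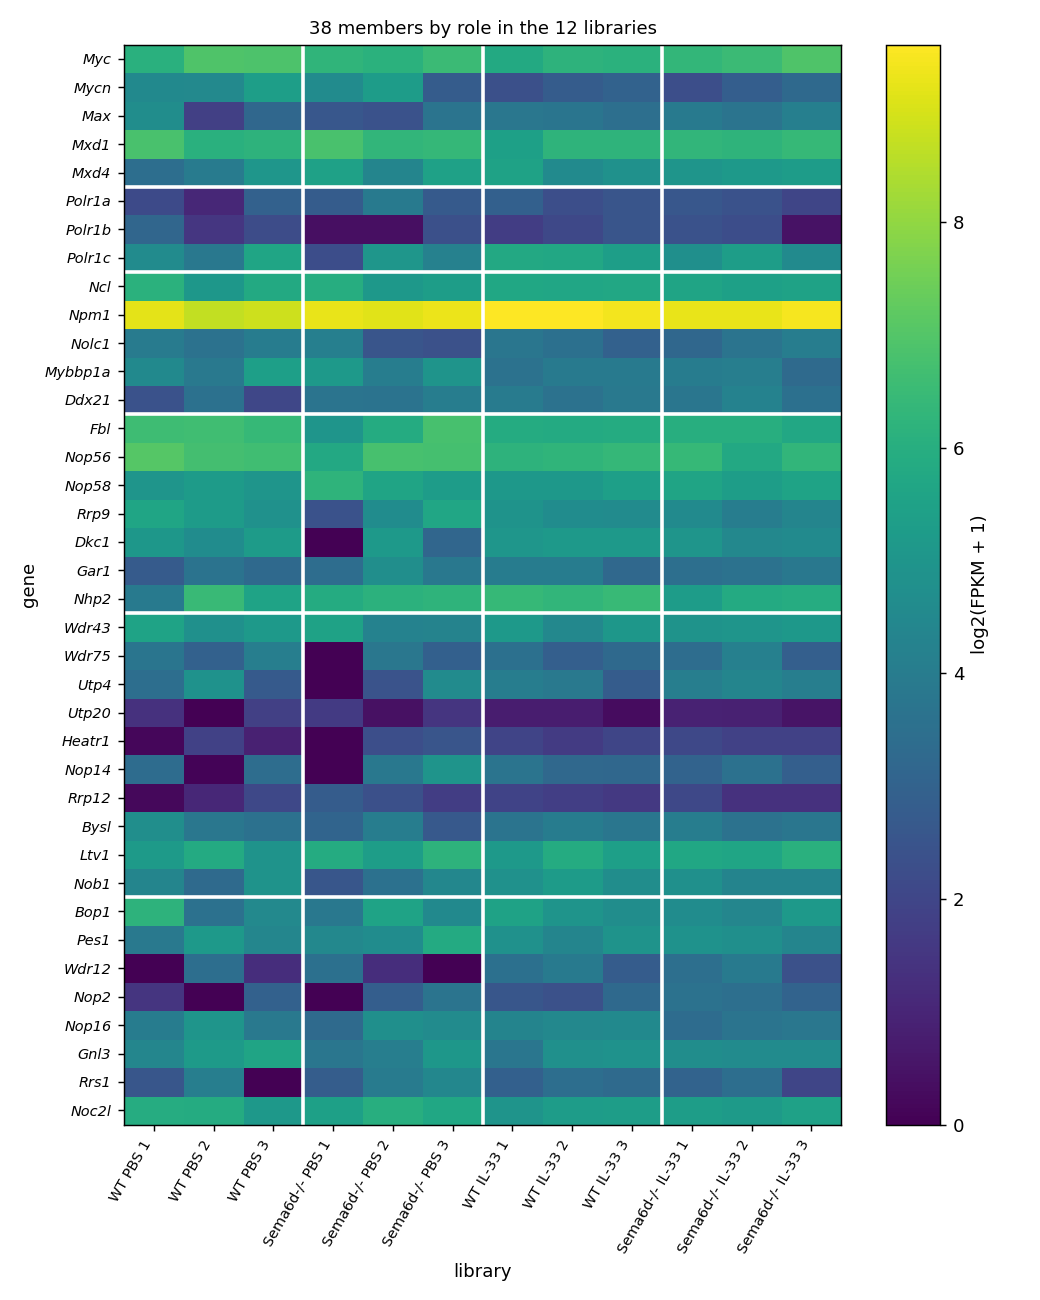
Values of the 38 members, log2(FPKM + 1) by color, in the 12 libraries in columns, with white lines between groups and between roles. *Npm1* is the brightest row in each library, and the darkest cells, at 0, are in PBS libraries, 6 of them in *Sema6d*-/- PBS replicate 1.

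The mean log2(FPKM + 1) over all 38 members was 4.17, 4.06 and 4.26 in the WT PBS libraries and 3.60, 4.28 and 4.41 in the *Sema6d*-/- PBS libraries. It was 4.34, 4.33 and 4.29 in the WT IL-33 libraries and 4.32, 4.33 and 4.19 in the *Sema6d*-/- IL-33 libraries. The IL-33 libraries lay within the range of the *Sema6d*-/- PBS libraries, of which replicate 1 was lowest, while in WT all IL-33 libraries were above all PBS libraries. Against the mean of all genes tested in the same library, the members were 0.48 to 1.04 higher under PBS and 0.67 to 0.81 higher under IL-33 on the log2 scale. In WT this difference ran the other way, 0.84 to 0.94 under PBS and 0.79 to 0.81 under IL-33, also without overlap. The 26 proliferation genes were different, with means of 1.39 to 2.17 in PBS and 3.07 to 3.62 in IL-33 libraries, which did not overlap.

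**Figure D2:**
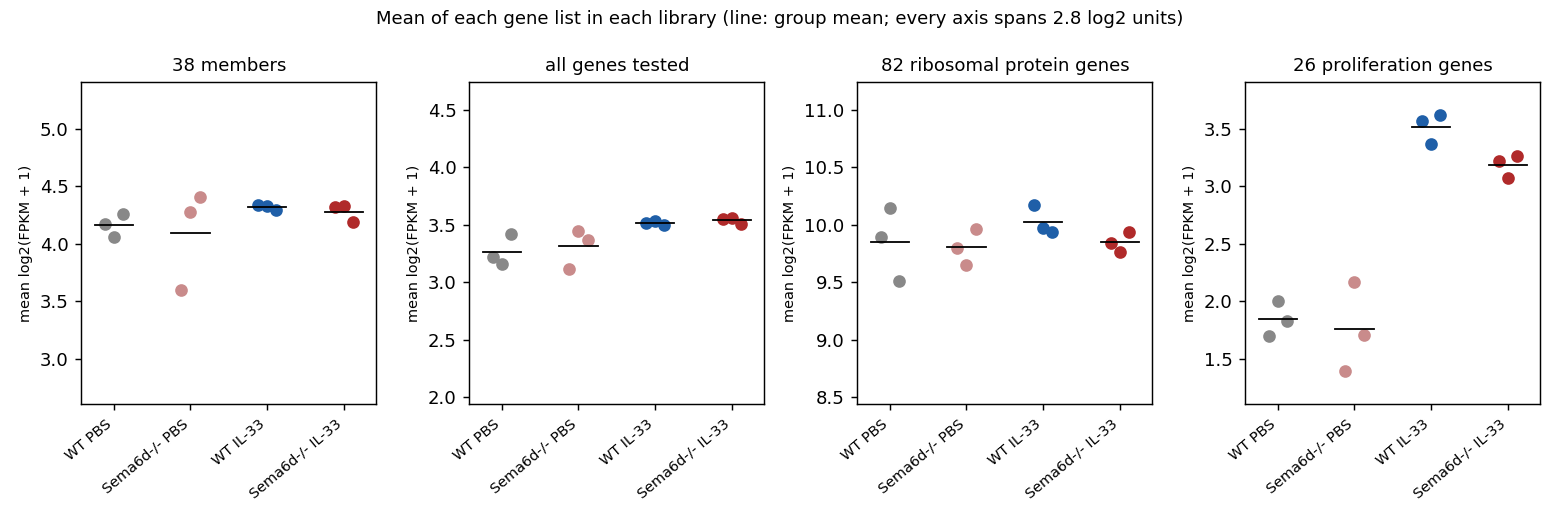
Mean log2(FPKM + 1) of 38 members, all 11395 genes tested, 82 cytosolic ribosomal protein genes and 26 proliferation genes in each library (points) with the group mean (line), by group. Member means under IL-33 lie between 4.19 and 4.34, inside the range of 3.60 to 4.41 of the *Sema6d*-/- PBS libraries and above the WT PBS libraries in WT, whereas proliferation gene means under IL-33 lie clear of the PBS libraries.

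Differences were tested with limma on log2(FPKM + 1) in a model of the 4 group means. The spread of a gene was estimated over all 12 libraries together, so standard errors between IL-33 groups also carry the spread under PBS. A gene was called at a Benjamini-Hochberg adjusted p under 0.05 over all 11395 genes. Because 1 is added to each FPKM before the logarithm, log2 fold changes of genes with low values come out too small. With IL-33 against PBS in WT, 1 of 38 members was called higher and 0 lower (4.27% of all genes tested were called in either direction), and in *Sema6d*-/- 0 members were called (2.84% of all genes), with 1 member at an unadjusted p under 0.05. Averaged over the genotypes, 1 member was called lower and 0 higher (8.82% of all genes), where 6 members had an unadjusted p under 0.05. Between the genotypes, 0 members were called under IL-33 (0.00878% of all genes, 1 gene) and 0 under PBS (0.579% of all genes), with 0 and 4 members at an unadjusted p under 0.05. For the interaction of genotype and treatment, 0 members were called (0.0176% of all genes), with 2 at an unadjusted p under 0.05. The share of members called was near or below that of all genes in each contrast. The median log2 fold change of the members was 0.14 in WT, 0.07 in *Sema6d*-/- and 0.08 averaged over the genotypes, beside 0.16, 0.14 and 0.16 over all genes tested. Quantile normalization turned this order, with 0.09, 0.05 and 0.05 for the members and −0.04, −0.02 and −0.03 for all genes. Leaving out 1 library turned the sign of the change of 12 members in WT (31.6%, against 35.2% of all genes), 12 in *Sema6d*-/- (31.6%, against 37.8%) and 16 averaged over the genotypes (42.1%, against 31.0%). The median half-width of the members' 95% confidence interval was 1.08 within a genotype on the log2 scale. In bulk libraries, fewer cells of a type and less RNA per cell cannot be told apart.

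Of the MYC network, *Mycn* was the member called with the contrast averaged over the genotypes. *Mycn* encodes N-MYC, a MYC paralog that binds the same E-boxes. Its FPKM was 22.1, 21.6 and 40.4 in WT PBS and 23.3, 38.5 and 5.84 in *Sema6d*-/- PBS libraries. Under IL-33 the WT libraries had 4.05, 5.91 and 7.06 FPKM and those of *Sema6d*-/- mice 3.98, 6.19 and 8.76. Every IL-33 library was below every PBS library except for *Sema6d*-/- PBS replicate 3, which lay among them, so that the treatments did not overlap in WT and overlapped in *Sema6d*-/-. *Mycn* fell under IL-33 by 1.75 on the log2 scale (standard error 0.42, 95% confidence interval −2.67 to −0.83, adjusted p = 0.0234, limma), a mean of 25.3 FPKM in 6 PBS libraries against 5.99 in 6 IL-33 libraries (exact permutation test within the genotypes, p = 0.0150). That permutation p is not adjusted for the number of members. The same permutation test also gave a p under 0.05 for *Npm1* (0.03), *Mybbp1a* (0.04), *Noc2l* (0.04), *Nob1* (0.0450) and *Wdr12* (0.0450). Within WT the change of *Mycn* was −2.09 (adjusted p = 0.0777, limma) and within *Sema6d*-/- −1.41 (adjusted p = 0.282, limma), and the difference between them was not called (interaction 0.68, adjusted p = 0.918). Without *Sema6d*-/- PBS replicate 3, the low library, the *Sema6d*-/- change was −2.14 (adjusted p = 0.0385), the WT adjusted p 0.0187 and the interaction −0.05, and without *Sema6d*-/- PBS replicate 2 the *Sema6d*-/- change was −0.87 (adjusted p = 0.469), the WT adjusted p 0.0495 and the interaction 1.22. The interaction was also 0.39 without WT PBS replicate 3 and 0.44 without *Sema6d*-/- IL-33 replicate 3. The call was lost when WT IL-33 replicate 1 (adjusted p = 0.0646), WT IL-33 replicate 2 (0.0535), *Sema6d*-/- IL-33 replicate 1 (0.0669) or *Sema6d*-/- IL-33 replicate 2 (0.0562) was left out, and the change was −1.02 (adjusted p = 0.0956, limma) without *Sema6d*-/- PBS replicates 1 and 2 together, a test chosen after the data were seen. In that test the *Sema6d*-/- change reversed to 0.04, since the PBS library left has a low value.

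*Myc* was among the higher members, at a mean of 85.7 FPKM. Its FPKM was 66.1, 123 and 119 in WT PBS, 75.2, 68.0 and 91.2 in *Sema6d*-/- PBS, 55.5, 71.8 and 68.1 in WT IL-33 and 79.0, 90 and 121 in *Sema6d*-/- IL-33 libraries. Under IL-33 every *Sema6d*-/- library was above every WT library, without overlap, and under PBS the genotypes overlapped. The difference under IL-33 was 0.55 (standard error 0.27, confidence interval −0.04 to 1.14, adjusted p = 1, limma), and the interaction was 0.90 (standard error 0.38, adjusted p = 0.880). *Mxd1*, which encodes a MAX partner that antagonizes MYC, was 42.4, 73.2 and 73.7 FPKM in WT and 78.0, 74.7 and 84.1 in *Sema6d*-/- libraries under IL-33. It also did not overlap between the genotypes, with a difference of 0.36 (standard error 0.28, adjusted p = 1, limma), and 0.10 without WT IL-33 replicate 1. *Max* and *Mxd4*, the dimer partner of MYC and another antagonist, had changes of 0.74 and 0.43 averaged over the genotypes (adjusted p = 0.368 and 0.469, limma). *Max* came to 0.38 without WT PBS replicate 2, and *Mxd4* to 0.26, 0.65 and 0.25 without WT PBS replicate 1, WT PBS replicate 3 and *Sema6d*-/- PBS replicate 2.

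RNA polymerase I was read through 3 subunits. The largest, *Polr1a*, and *Polr1b*, the next largest, were low, at means of 5.38 and 3.07 FPKM, and *Polr1c*, a subunit shared with RNA polymerase III, was 31.2. The FPKM of *Polr1c* was 23.5, 13.4 and 49.0 in WT PBS, 3.84, 31.5 and 17.5 in *Sema6d*-/- PBS, 54.4, 52.3 and 40.2 in WT IL-33 and 26.4, 39.3 and 23.0 in *Sema6d*-/- IL-33 libraries. Under IL-33 the genotypes did not overlap, *Sema6d*-/- being lower, while under PBS the values spread widely within each group. The averaged IL-33 change was 0.99 (standard error 0.44, adjusted p = 0.208, limma) and the genotype difference under IL-33 −0.73 (standard error 0.63, adjusted p = 1). The averaged change came to 0.60 with *Sema6d*-/- PBS replicate 1 left out. *Polr1a*, at 5.83, 14.2 and 5.50 FPKM in *Sema6d*-/- PBS and 5.09, 4.28 and 2.98 in *Sema6d*-/- IL-33 libraries, did not overlap in *Sema6d*-/- (−0.80, adjusted p = 0.558, limma, and −0.40 without *Sema6d*-/- PBS replicate 2), and its exons overlap an antisense gene.

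Among genes of nucleolar structure and rDNA transcription, *Npm1* stood far above the other members in level per length. It encodes nucleophosmin, a chaperone of the nucleolus that also carries ribosomal particles. Its FPKM was 580, 415 and 453 in WT PBS, 617, 557 and 624 in *Sema6d*-/- PBS, 760, 742 and 676 in WT IL-33 and 607, 604 and 686 in *Sema6d*-/- IL-33 libraries. In WT the IL-33 libraries were all above the PBS libraries, and in *Sema6d*-/- the treatments overlapped. *Npm1* rose by 0.60 in WT (standard error 0.14, 95% confidence interval 0.30 to 0.90, adjusted p = 0.0287, limma), a mean of 482 against 726 FPKM, and was 0.08 in *Sema6d*-/- (standard error 0.14, adjusted p = 0.844), where it came to 0.03 without PBS replicate 2 and 0.02 without IL-33 replicate 3. The difference between the genotypes was −0.52 (standard error 0.19, interval −0.95 to −0.10, adjusted p = 0.872) and was not called. Averaged over the genotypes the change was 0.34 (adjusted p = 0.0503, and 0.0113 without WT PBS replicate 1). The WT call was lost when WT PBS replicate 2 (adjusted p = 0.0640), WT PBS replicate 3 (0.0593), WT IL-33 replicate 1 (0.118), replicate 2 (0.108) or replicate 3 (0.0684) was left out, with the trend dropped (0.232), with the replicate number as a block (0.0504) and when only the WT groups were fitted (0.0956).

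*Mybbp1a*, which encodes a nucleolar MYB-binding protein, was 22.3, 13.5 and 41.6 FPKM in WT PBS, 34.8, 15.7 and 29.6 in *Sema6d*-/- PBS, 11.1, 14.1 and 14.4 in WT IL-33 and 15.1, 16.1 and 8.84 in *Sema6d*-/- IL-33 libraries. The IL-33 libraries were low and narrow and overlapped only the lowest PBS libraries. The averaged change was −0.85 (standard error 0.32, adjusted p = 0.130, limma). *Ddx21*, an RNA helicase of rRNA transcription and processing, was 4.27, 10.9 and 3.07 FPKM in WT PBS, 11.7, 11.6 and 15.7 in *Sema6d*-/- PBS, 15.0, 11.2 and 13.7 in WT IL-33 and 12.7, 17.8 and 10.7 in *Sema6d*-/- IL-33 libraries. Every WT PBS library was below every WT IL-33 and every *Sema6d*-/- PBS library, and *Sema6d*-/- IL-33 replicate 3 was below WT PBS replicate 2. The genotype difference under PBS was 1.13 (standard error 0.45, adjusted p = 0.325, limma). Its WT change was 1.17 (standard error 0.45, adjusted p = 0.191, limma), and 1.62 (adjusted p = 0.0397) without WT PBS replicate 2. Nucleolin (*Ncl*), which packs rDNA chromatin and nascent rRNA, was 51.6, 50.1 and 52.7 FPKM in WT and 47.0, 42.0 and 44.9 in *Sema6d*-/- libraries under IL-33, without overlap, a difference of −0.20 (standard error 0.30, adjusted p = 1, limma). *Nolc1*, a scaffold for snoRNPs and polymerase I, had changes of −0.46 in WT (−0.63 to −0.23 with 1 library left out) and 0.63 in *Sema6d*-/- (0.32 without *Sema6d*-/- PBS replicate 3 and 1.18 without replicate 1).

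**Figure D3:**
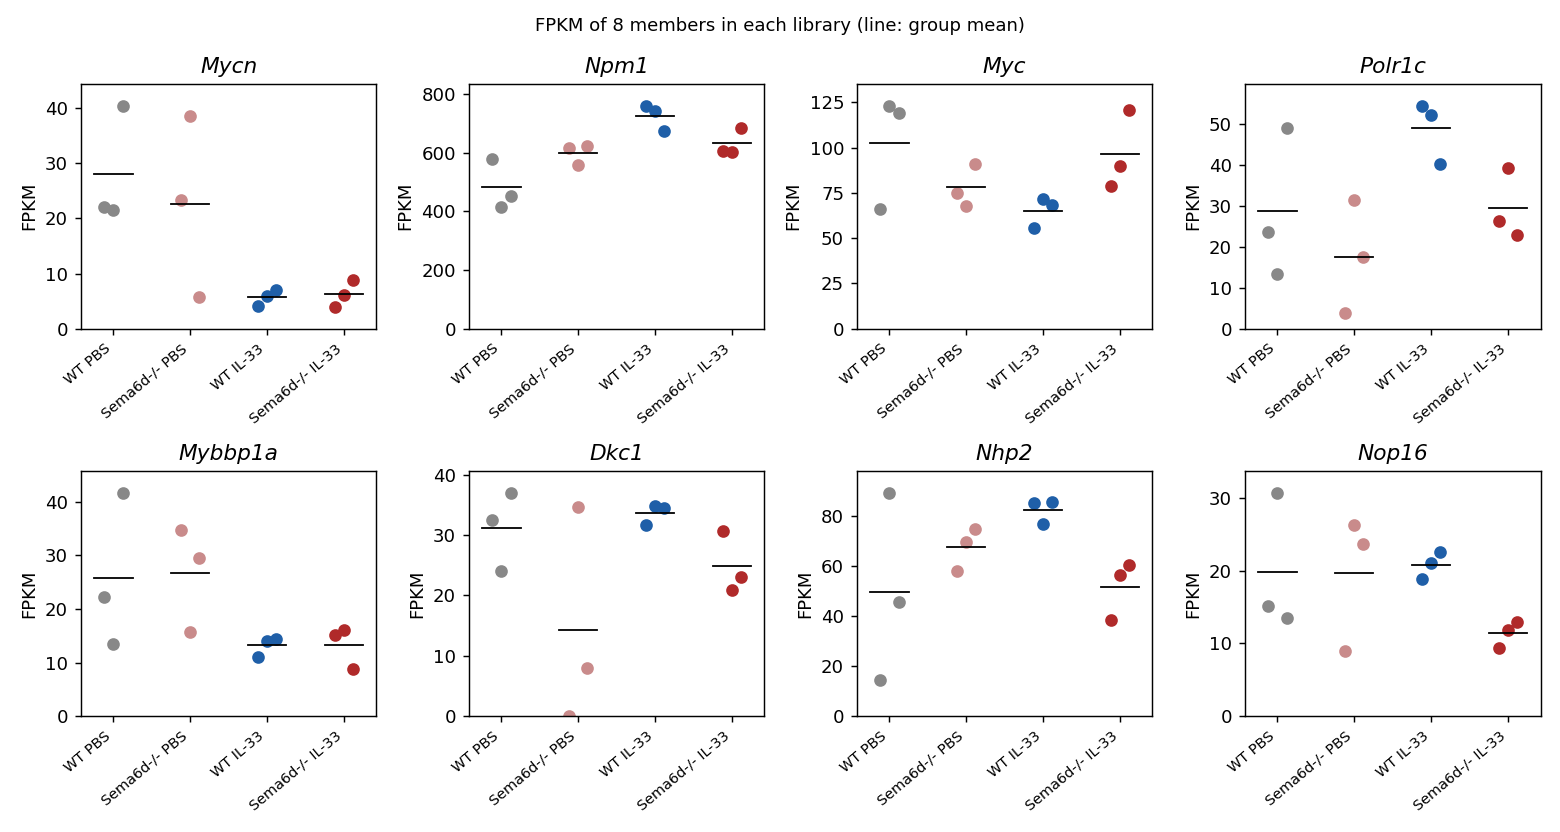
FPKM of 8 members in each of the 12 libraries (points) with the group mean (line), from 0. *Mycn* is at 3.98 to 8.76 in the IL-33 libraries, and *Npm1* is higher in all WT IL-33 than in all WT PBS libraries, while most other members overlap between treatments.

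The snoRNP proteins modify rRNA. *Fbl* encodes fibrillarin, the methyltransferase of box C/D snoRNPs, with *Nop56* and *Nop58* as their core, and *Dkc1*, *Nhp2* and *Gar1* form box H/ACA snoRNPs, which place pseudouridines. *Fbl* was 96.3, 98.5 and 85.1 FPKM in WT PBS and 30.5, 58.3 and 110 in *Sema6d*-/- PBS libraries, and 58.0, 56.0 and 58.6 in WT IL-33 and 62.8, 62.9 and 53.1 in *Sema6d*-/- IL-33 libraries. WT libraries under IL-33 were below those under PBS, without overlap, whereas *Sema6d*-/- PBS libraries spread over the whole range. The WT change was −0.69 (standard error 0.36, adjusted p = 0.359, limma), and *Nop56* in WT was also without overlap, at −0.54 (standard error 0.29, adjusted p = 0.379). The adjusted p of *Fbl* in WT was 0.0407 when only the WT groups were fitted and 0.0180 without *Sema6d*-/- PBS replicates 1 and 2. *Nop58* was higher in *Sema6d*-/- than in WT PBS libraries, at 73.3, 47.4 and 37.9 against 31.2, 37.1 and 30.6 FPKM, a difference of 0.62 (standard error 0.27, adjusted p = 0.360, limma), and 0.36 without *Sema6d*-/- PBS replicate 1.

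*Dkc1*, the pseudouridine synthase dyskerin, was 32.5, 24.1 and 36.9 FPKM in WT PBS, 0, 34.6 and 8.02 in *Sema6d*-/- PBS, 31.7, 34.8 and 34.5 in WT IL-33 and 30.7, 20.9 and 23.1 in *Sema6d*-/- IL-33 libraries. It was listed at 0 in *Sema6d*-/- PBS replicate 1 and was lower in all *Sema6d*-/- than in all WT libraries under IL-33. The genotype difference was −0.44 under IL-33 (standard error 0.92, adjusted p = 1, limma) and −2.21 under PBS (standard error 0.92, adjusted p = 0.344). The latter was −0.82 (adjusted p = 0.459, limma) without *Sema6d*-/- PBS replicate 1, −3.40 (adjusted p = 0.0550) without replicate 2 and −1.81 (adjusted p = 0.0285) without both, which leaves 1 library in the group, and it was called in 1 of 22 alternatives. *Nhp2* was 85.1, 76.9 and 85.4 FPKM in WT and 38.3, 56.3 and 60.3 in *Sema6d*-/- libraries under IL-33, a difference of −0.69 (standard error 0.49, adjusted p = 1, limma). *Rrp9*, a U3 snoRNP protein, had 29.3, 24.1 and 23.4 FPKM in WT IL-33 libraries and 22.9, 15.8 and 19.6 in those of *Sema6d*-/- mice given IL-33, a difference of −0.39, and −0.25 without *Sema6d*-/- IL-33 replicate 2. Neither overlapped between the genotypes under IL-33. *Dkc1*, *Nhp2*, *Rrp9* and *Nop56* share exon sequence with genes on the opposite strand, whose reads could be counted with theirs if strand was not used. *Gar1* had a mean of 12.3 FPKM and changes with IL-33 of 0.54 in WT (0.31 to 0.80 with 1 library left out) and −0.36 in *Sema6d*-/-, which was 0.01 without *Sema6d*-/- PBS replicate 2.

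Of the 10 small subunit assembly members, 0 were called in the contrasts of IL-33 with PBS. Of all genes tested, 4.27% were called in WT, 2.84% in *Sema6d*-/- and 8.82% averaged over the genotypes. The members' averaged log2 fold changes ran from −0.43 in *Utp20* to 0.86 in *Utp4*. *Utp20* was −0.24 without WT PBS replicate 3, and was called lower with quantile normalization. *Utp4* was 0.27 without *Sema6d*-/- PBS replicate 1, where it was listed at 0, and 1.42 without *Sema6d*-/- PBS replicate 3. *Utp4* and *Utp20* belong to the processome that folds the precursor of the small subunit, with *Wdr43*, *Wdr75*, *Heatr1* and *Nop14*, and *Nob1* makes the last cut of its rRNA. *Nob1* was 19.5, 8.79 and 29.1 FPKM in WT PBS, 4.84, 10.9 and 20.8 in *Sema6d*-/- PBS, 28.0, 36.9 and 24.9 in WT IL-33 and 26.9, 18.9 and 19.0 in *Sema6d*-/- IL-33 libraries. PBS values were often lower, and the treatments overlapped in each genotype. The averaged change was 0.85 (standard error 0.36, adjusted p = 0.186, limma). *Utp4* was 15.5, 13.5 and 5.81 FPKM in WT and 16.1, 19.6 and 16.3 in *Sema6d*-/- libraries under IL-33, without overlap, a difference of 0.64 (standard error 0.95, adjusted p = 1, limma), and 0.24 without WT IL-33 replicate 3. *Ltv1*, *Wdr43* and *Bysl*, the more abundant of the rest, had ranges with 1 library left out of −0.05 to 0.41, −0.46 to −0.06 and −0.45 to 0.12 in WT and −0.23 to 0.20, 0.09 to 0.74 and 0.25 to 0.93 in *Sema6d*-/-. *Rrp12*, an export factor, had a mean of 2.54 FPKM.

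Of the 8 large subunit assembly members, 0 were called in the same contrasts, beside 4.27%, 2.84% and 8.82% of all genes tested. *Pes1*, *Bop1* and *Wdr12* form the PeBoW complex, which is needed to process the large subunit's rRNA, and *Nop2* encodes a methyltransferase of it. *Wdr12* was 0, 9.98 and 1.41 FPKM in WT PBS, 10.5, 1.41 and 0 in *Sema6d*-/- PBS, 10.5, 14.5 and 5.95 in WT IL-33 and 10.2, 14.5 and 4.22 in *Sema6d*-/- IL-33 libraries. PBS libraries were either near 0 or as high as those under IL-33. Its averaged change was 1.76 (standard error 0.70, adjusted p = 0.151, limma), and 2.25 (adjusted p = 0.0482) without *Sema6d*-/- PBS replicate 1. Single libraries turned the direction of *Bop1* and *Pes1*, which with 1 left out ran from −0.28 to 1.01 and −0.07 to 0.58 in WT and from −0.33 to 0.53 and −0.59 to 0.11 in *Sema6d*-/-. *Nop16* was 18.8, 21.0 and 22.6 FPKM in WT and 9.38, 11.8 and 12.9 in *Sema6d*-/- libraries under IL-33. The genotypes did not overlap, with a difference of −0.82 (standard error 0.44, interval −1.79 to 0.14, adjusted p = 1, limma). Of the factors of early large subunit particles, *Noc2l* had changes of −0.45 in WT (−0.72 to −0.31 with 1 library left out) and −0.36 in *Sema6d*-/- (−0.51 to −0.23), and *Gnl3* of −0.59 (−0.93 to −0.23) and 0.33 (0.06 to 0.71). *Rrs1* was 4.94, 16.0 and 0 FPKM in the WT PBS libraries. Its change in WT was 1.02, which was −0.09 without WT PBS replicate 3, listed at 0, and larger without replicate 2, the highest. In *Sema6d*-/- its change was −0.91 (−1.38 to −0.49).

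Between the genotypes under IL-33, groups did not overlap in 3 members that were higher in *Sema6d*-/- libraries (*Myc*, *Mxd1* and *Utp4*), against 6.88% of all genes tested, and in 6 that were lower (*Polr1c*, *Ncl*, *Rrp9*, *Dkc1*, *Nhp2* and *Nop16*), against 7.35%. With IL-33 against PBS in WT, groups did not overlap in 2 members that were higher (*Npm1* and *Ddx21*), against 15.9% of all genes, and 3 that were lower (*Mycn*, *Fbl* and *Nop56*), against 9.23%, and in *Sema6d*-/- in 0 that were higher (13.9%) and 1 that was lower (*Polr1a*, 8.75%). Under PBS, 2 members were higher in *Sema6d*-/- libraries without overlap (*Ddx21* and *Nop58*, against 4.42%) and 0 lower (4.20%). With IL-33 against PBS over both genotypes, 0 members were higher (4.12% of all genes) and 0 lower (2.33%) in all 6 IL-33 than in all 6 PBS libraries. None of the 9 members without overlap between the genotypes under IL-33 reached an adjusted p under 0.05 in that contrast, and their intervals held 0. Those intervals rest on a spread shared by all 12 libraries, not on the IL-33 libraries alone. The median standard deviation of the members on the log2 scale was 0.63 in WT and 0.72 in *Sema6d*-/- under PBS. Under IL-33 it was 0.26 and 0.27.

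Other genes of these pathways, in 6 lists, held 11 calls among 156 genes tested (7.05%, against 8.82% of all genes). With IL-33 averaged over the genotypes, of 8 other MYC network genes tested, 2 (25%) rose, *Mxd3* (0.87, adjusted p = 0.0378, limma) and *Mxi1* (0.85, adjusted p = 0.0190), both MAX partners that antagonize MYC. *Mxi1* was 11.2 to 18.6 FPKM in the 6 PBS and 21.7 to 29.9 in the 6 IL-33 libraries. Of 15 other RNA polymerase I genes, 1 fell, *Rrn3*, the initiation factor that recruits the polymerase. *Rrn3* was 9.85 to 29.4 FPKM in PBS and 4.71 to 8.34 in IL-33 libraries, without overlap (−1.39, standard error 0.29, adjusted p = 0.0100, limma). Of 18 nucleolar RNA modification genes, 2 rose (*Rrp8*, 2.1, adjusted p = 0.00323, and *Zcchc4*, 1.90, adjusted p = 0.0346, limma) and 1 fell (*Nsun2*, −0.76, adjusted p = 0.0200, limma). *Rrp8* was 0 to 1.61 FPKM in PBS and 3.53 to 9.23 in IL-33 libraries, and *Zcchc4* 0.0927 to 5.84 and 3.52 to 7.12. Of 46 other small subunit genes 0 were called, with 4 at an unadjusted p under 0.05. Of 53 other large subunit genes, 1 rose (*Urb2*, 1.42, adjusted p = 0.0270) and 3 fell (*Ppan*, −1.38, adjusted p = 0.000937, *Gltscr2*, the older symbol of *Nop53*, −0.57, adjusted p = 0.00356, and *Rrp1*, −0.51, adjusted p = 0.0192, limma). *Urb2* was listed at 0 in every PBS library but *Sema6d*-/- PBS replicate 2 (1.84 FPKM), and was 1.25 to 3.78 under IL-33. The part of depth in these rises from low values was not tested. *Ppan*, which encodes a factor of large subunit assembly, was 38 to 64.1 FPKM in PBS and 13.4 to 20.9 in IL-33 libraries, without overlap. Of 16 exosome genes 1 rose, *Exosc8* (1.50, adjusted p = 0.00478, limma). In WT it rose by 2.79 (standard error 0.38, adjusted p = 0.00184, limma), from 4.83, 6.21 and 15.4 FPKM under PBS to 69.7, 53.7 and 58.0 under IL-33. In *Sema6d*-/- its treatments overlapped, at 42.5, 35.7 and 37.9 FPKM under PBS and 56.9, 51.0 and 31.2 under IL-33 (0.21, adjusted p = 0.846, and 0.05, 0.12 and 0.47 without *Sema6d*-/- IL-33 replicates 1, 2 and 3 in turn). Under PBS it was higher in *Sema6d*-/- (2.16, adjusted p = 0.0344, limma), a call lost without WT PBS replicate 1 or 2 or any of the 6 IL-33 libraries (adjusted p 0.0517 to 0.0752) and kept in 10 of 23 alternatives, and its interaction was −2.58 (adjusted p = 0.298, and 0.0241 without WT PBS replicate 3). Leaving out single libraries also took the averaged call from *Mxd3* (each of the 6 IL-33 libraries, adjusted p 0.0763 to 0.10), *Mxi1* (WT or *Sema6d*-/- IL-33 replicate 2 or 3, 0.0513 to 0.0587), *Zcchc4* (each but WT PBS replicate 1 and *Sema6d*-/- PBS replicate 2, 0.0572 to 0.0863), *Nsun2* (WT IL-33 replicate 1 or *Sema6d*-/- IL-33 replicate 3, 0.0517 and 0.0528), *Urb2* (WT IL-33 replicate 1 or 2 or *Sema6d*-/- IL-33 replicate 3, 0.0535 to 0.0678) and *Rrp1* (WT IL-33 replicate 3 or *Sema6d*-/- IL-33 replicate 2, 0.0530 and 0.0548). With quantile normalization *Urb2* was 0.78 (adjusted p = 0.155) and *Zcchc4* 1.28 (adjusted p = 0.0818).

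Lists outside assembly were set beside these. Over all genes tested, 8.82% were called with IL-33 averaged over the genotypes, and the median log2 fold change was 0.16. Of 26 proliferation genes, 12 rose in this contrast and 1 fell (50.0%), with a median log2 fold change of 1.49. The largest rises were *Ube2c* (4.24, adjusted p = 1.74e-05), *Birc5* (3.22, adjusted p = 0.00227) and *Rrm2* (2.87, adjusted p = 0.0286, limma), genes of mitosis and nucleotide synthesis, and *Mcm7*, a replication helicase subunit, fell by 1 (adjusted p = 0.00744, limma). *Ube2c* was 0 to 0.190 FPKM under PBS and 7.34 to 29.0 under IL-33. *Birc5* was 0 to 7.71 and 6.30 to 23.5, and *Rrm2* 0 to 12.1 and 16.6 to 29.4. The part of depth in these rises was not tested. Of 24 other genes known as MYC-activated, 1 rose, *Mthfd2*, a mitochondrial folate enzyme (3.32, adjusted p = 0.00174, limma), and 2 fell, *Ccnd2* (−0.53, adjusted p = 0.0257) and *Ptma* (−0.41, adjusted p = 0.00703). Calls made up 12.5% of this list, and its median was 0.13, below that of all genes tested. The call of *Rrm2* was lost without *Sema6d*-/- PBS replicate 1 or 3 or any of the 6 IL-33 libraries (adjusted p 0.0560 to 0.0730), and that of *Ccnd2* without WT IL-33 replicate 1 or 3 or *Sema6d*-/- IL-33 replicate 1 or 2 (0.0600 to 0.0706). The 82 cytosolic ribosomal protein genes, taken by symbol after the data were seen, held 3 called higher and 0 lower (3.66%), with a median of 0.08. Both were below the values of all genes tested. Between the genotypes under IL-33, 79 of these 82 (96.3%) had an estimate below 0 in *Sema6d*-/- libraries (median −0.20), against 48.4% of all genes tested and 19 of the 38 members, with 0 called and 6 at an unadjusted p under 0.05. That median was −0.10 with quantile normalization, with 72 of 82 below 0, so its size depends on the scaling. The mean log2(FPKM + 1) of the 82 genes was 10.17, 9.97 and 9.94 in WT IL-33 libraries, highest in replicate 1. It was 9.84, 9.76 and 9.94 in *Sema6d*-/- IL-33 libraries, so the genotypes met at 9.94. Of the 26 proliferation genes 21 (80.8%) were below 0 in that contrast, with a median of −0.34 (−0.39 with quantile normalization), 0 called and, at an unadjusted p under 0.05, 1 higher and 2 lower, and their means of 3.37 to 3.62 in WT and 3.07 to 3.26 in *Sema6d*-/- IL-33 libraries did not overlap.

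The members are spread over 18 chromosomes of GRCm38 in GENCODE vM21. *Mycn* lies at chr12:12936093-12941914 on the minus strand and *Npm1* at chr11:33152287-33163206 on the minus strand. Exons of 16 of the 38 overlap exons on the opposite strand, and 6 members (*Ncl*, *Nop56*, *Nop58*, *Dkc1*, *Wdr43* and *Gnl3*) hold 19 snoRNA genes in all on their own strand, such as *Snord70* and *Snord11* in *Nop58*. Promoters of 300 bases, from 250 before to 50 after the start, were found in RefSeq (GRCm38.p6) for 32 of 38 members. The E-box CACGTG, read on both strands since it is its own reverse complement, was in at least 1 promoter of 9 of the 32 (28.1%), against 12.1% of the tested genes with a promoter and 8.09% of all genes. With IL-33 against PBS averaged over the genotypes, the members with it had a median log2 fold change of 0.08 and the 23 without it 0.09. For *Sema6d*-/- against WT these medians were 0.18 and −0.12 under IL-33 and 0.12 and −0.20 under PBS. The difference between the sets was not tested. The printing rule, E-box members called with the averaged contrast, gave 0 promoters. The sequences given here were chosen after the values were seen and are those of *Mycn*, which fell but has no CACGTG in this window, and of *Max*, *Mybbp1a* and *Nop2*, in which capitals mark it. A match is a description of letters, not a site of binding.
*Mycn* (chr12:12941787-12942086, minus strand): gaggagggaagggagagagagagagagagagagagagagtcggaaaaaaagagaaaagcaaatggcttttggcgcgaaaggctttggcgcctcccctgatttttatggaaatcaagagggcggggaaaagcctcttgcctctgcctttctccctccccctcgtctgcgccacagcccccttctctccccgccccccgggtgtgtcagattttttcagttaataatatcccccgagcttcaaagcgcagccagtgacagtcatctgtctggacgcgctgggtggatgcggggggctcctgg
*Max* (chr12:76962199-76962498, minus strand): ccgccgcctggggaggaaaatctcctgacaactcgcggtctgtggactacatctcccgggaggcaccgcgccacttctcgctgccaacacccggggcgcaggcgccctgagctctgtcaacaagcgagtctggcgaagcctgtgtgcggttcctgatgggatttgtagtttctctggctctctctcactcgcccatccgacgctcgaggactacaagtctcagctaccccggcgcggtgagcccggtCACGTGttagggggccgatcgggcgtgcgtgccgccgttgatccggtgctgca
*Mybbp1a* (chr11:72441077-72441376, plus strand): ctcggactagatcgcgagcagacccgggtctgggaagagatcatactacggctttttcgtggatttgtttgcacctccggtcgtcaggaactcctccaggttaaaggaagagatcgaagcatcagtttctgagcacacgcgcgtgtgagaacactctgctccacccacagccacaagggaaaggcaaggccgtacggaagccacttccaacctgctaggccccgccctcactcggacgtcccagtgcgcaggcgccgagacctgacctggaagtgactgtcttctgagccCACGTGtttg
*Nop2* (chr6:125131633-125131932, plus strand): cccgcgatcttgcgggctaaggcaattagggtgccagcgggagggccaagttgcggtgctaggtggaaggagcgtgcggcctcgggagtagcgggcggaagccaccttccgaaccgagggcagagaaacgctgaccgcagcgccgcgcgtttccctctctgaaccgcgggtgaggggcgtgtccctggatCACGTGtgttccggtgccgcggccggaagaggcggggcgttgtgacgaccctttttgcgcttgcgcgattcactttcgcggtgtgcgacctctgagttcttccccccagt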

How the data were processed

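RNA of sorted lung ILC2s was sequenced in 12 libraries. The authors deposited FPKM values, scaled for library size and gene length, 1 library per file. The reads were mapped to mm10. The labels name TopHat2 2.1.1 and Cuffdiff 2.2.1 where the methods name another TopHat version and Cuffnorm, and the annotation is not given in the sources used here.

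From the FPKM values, log2(FPKM + 1) was tested with limma 3.58.1 in R 4.3.3 (lmFit, eBayes with a trend) over the 11395 genes that averaged 0.5 FPKM or more, with 8 residual degrees of freedom and Benjamini-Hochberg adjustment. Single genes were also tested by two-sided exact permutation, over 20 assignments of 3 against 3 libraries and 400 within the genotypes. Python 3.11.15, numpy 2.4.6 and pandas 2.3.3 were used for the rest. The fit was tested on simulated data for IL-33 against PBS in WT, and the permutation tests on fixed values with a known answer. Samples were grouped by their labels, which do not say how many mice a library came from, so p-values measure the spread between these libraries, which may be technical.

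The genes named are the 38 members, up to 3 higher and 3 lower genes of each pathway list by log2 fold change among those called with the averaged contrast, and the most abundant gene of each marker list. Members and lists were chosen with earlier results of these data known. Alternatives were 0.1 as pseudocount, all genes kept or only those averaging 2 FPKM or more, quantile or median ratio scaling, eBayes with no trend, array weights, a block for the replicate number, a fit of the compared groups alone, genes above 0 in every library, and each library left out. Leaving out 2 libraries together was added after seeing the data.

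The most abundant marker genes of other cell types, in FPKM over the 12 libraries, were *Ccr2* (macrophage and monocyte, 305 to 378 under PBS and 85.3 to 148 under IL-33), *Cd3g* (T cell, 190 to 480 and 202 to 312), *Cpa3* (mast cell and basophil, 42.9 to 89.3 and 17.8 to 40.0), *Ccr7* (dendritic cell, 0 to 31.5 and 25.1 to 112), *Epcam* (epithelial, 16.4 to 54.0 and 0 to 8.71), *Cd79b* (B cell, 0 to 8.90 and 2.76 to 26.8), *Pecam1* (endothelial, 0 to 15.3 and 10.6 to 20.4), *Cxcr2* (eosinophil and granulocyte, 6.17 to 11.2 and 5.45 to 8.92) and *Col3a1* (mesenchymal, 0 to 2.63 and 0 to 0.0204). Genes of 1 list can differ in direction. The epithelial list summed to 109 in *Sema6d*-/- IL-33 replicate 3, where *Sftpc*, named after its values were seen and 0 in all 6 PBS libraries, was 97.2, and to at most 71.8 in the others. The part of these cells in the results was not tested.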

Additional observations from a re-analysis of the deposited data

How the results depend on the processing

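The count of members called depended on the setting for the contrasts of IL-33 with PBS; the cause was not tested except where fewer libraries or genes were fitted. In WT, 1 member was called, against 0 without the trend, 0 with the replicate block, 2 (*Fbl* and *Mycn*, lower) when only the groups compared were fitted, and 3 without *Sema6d*-/- PBS replicates 1 and 2, an alternative chosen after seeing the data. Leaving out each library gave 0 to 2. Of all genes tested in WT, 486 were called in the main fit, 378 without the trend and 361 with the replicate block. With only the groups compared 509 were called, and 202 without WT IL-33 replicate 1. In *Sema6d*-/-, 0 were called, 2 (*Dkc1* and *Fbl*) without both of those libraries, and 0 to 1 leaving out each library. Averaged over the genotypes, 1 was called, against 2 with a pseudocount of 0.1, a mean of at least 2 FPKM, median ratio scaling or only genes above 0 in every library, each adding *Npm1*, 3 with quantile normalization (*Mycn*, *Npm1* and *Utp20*) and 3 (*Dkc1*, *Fbl* and *Rrp9*, not *Mycn*) without both libraries. Leaving out each library gave 0 to 3, the latter without *Sema6d*-/- PBS replicate 1 (*Mycn*, *Nop56* and *Wdr12*). In the main fit *Npm1* was close to a call (adjusted p = 0.0503, limma). The median ratio factors were 1.04 to 1.05 in all 12 libraries, so that scaling changed little. Of all genes tested, 1005 were called in the main averaged fit, 1079 with a pseudocount of 0.1 and 1027 with quantile normalization. Without *Sema6d*-/- PBS replicate 1 1137 were called, and 691 without WT IL-33 replicate 2. Within *Sema6d*-/- 324 were called in the main fit and 476 without *Sema6d*-/- PBS replicate 2. Under PBS, the genotypes had 0 members called and 1 (*Dkc1*) without both libraries, where the *Sema6d*-/- PBS group is 1 library, assumed to vary like the others. Under IL-33 and for the interaction, 0 members were called in every alternative run. The change of *Mycn* in *Sema6d*-/- reversed to 0.04 without both libraries; in the averaged contrast its adjusted p was 0.00238 to 0.0956 over 22 alternatives, under 0.05 in 17. Its interaction, 0.68 in the main fit, was −0.05 without *Sema6d*-/- PBS replicate 3, 1.22 without *Sema6d*-/- PBS replicate 2 and 2.13 without *Sema6d*-/- PBS replicates 1 and 2. The adjusted p of *Npm1* in WT was 0.00953 to 0.232 over 23. Quantile normalization moved the median change over the tested genes from 0.16 to −0.03 (log2, averaged over the genotypes), and that of the members from 0.08 to 0.05, so that the members' median went from below to above that of all genes, as it did within each genotype. Same-numbered libraries did not deviate together (correlation −0.05 to 0.04 over 18 pairs). Spread within the groups could hide a shared effect, so this does not tell whether the numbers pair samples. The replicate block lost the WT call of *Npm1* (adjusted p = 0.0504, limma) and kept that of *Mycn* in the averaged contrast, 1 member. Of the 18 pathway genes named, 8 were called in every alternative, and the others lost the call in at least 1, *Zcchc4* in 14 and *Rrm2* in 10. Apart from libraries left out singly, calls in the averaged contrast were lost with the replicate block for *Mxd3* (adjusted p = 0.0642), *Zcchc4* (0.0559), *Urb2* (0.0543) and *Ccnd2* (0.0563), without the trend for *Gltscr2* (0.0692), *Rrp1* (0.105), *Ccnd2* (0.0861) and *Ptma* (0.165), with quantile normalization for *Urb2* (0.155) and *Zcchc4* (0.0818), with array weights for *Urb2* (0.0635) and *Ccnd2* (0.0660), with all genes kept for *Zcchc4* (0.0550) and *Rrm2* (0.0528), with a pseudocount of 0.1 for *Rrm2* (0.0636) and without both libraries for *Zcchc4* (0.0694). The call of *Exosc8* between the genotypes under PBS was lost with the replicate block (0.0808), array weights (0.564), all genes kept (0.0599), only the groups compared (0.739) and without both libraries (0.10).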
